A study of Mus musculus with 12 samples.

Results

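Nfe2l2, which encodes the transcription factor NRF2, and 9 antioxidant genes known as NRF2 targets were followed through RNA-seq of mouse bone marrow-derived macrophages (BMDMs). The 10 genes were picked by symbol from the 55335 genes of the expression table, by a list that was drawn up with earlier results of these data known. They were Nfe2l2, Hmox1, Nqo1, Gclm, Gclc, Slc7a11, Txnrd1, Srxn1, Prdx1 and Gsr. Each symbol matched a single row, and all 10 genes were among the 12622 that were tested because at least 3 of the 12 libraries held them at an FPKM of 1 or more. FPKM counts fragments relative to gene length and to the mapped fragments of the library, so levels of different genes are compared per length.

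BMDMs are macrophages grown in culture from bone marrow with macrophage colony-stimulating factor, here from C57BL/6 mice aged 8 weeks. Cells of 2 genotypes, wild-type and Nlrp3-/-, were left unstimulated or costimulated with LPS+ATP, which gave 4 groups of 3 libraries. Nlrp3-/- mice were commercially obtained knockouts of Nlrp3, the sensor of the NLRP3 inflammasome. Control cells of both genotypes received no stimulation. Lipopolysaccharide (LPS) primes macrophages for inflammasome assembly and extracellular ATP then triggers it. The labels give 4 h of LPS followed by 30 min of ATP, whereas the methods of the study give 12 h and 2 h for these steps, and the files do not settle which applies. LPS and ATP were always given together, so their effects cannot be told apart. The sources used here do not say whether the 3 libraries of a group came from separate mice or cultures, so p-values measure only the spread between libraries, which may be technical.

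NRF2 is continuously made and destroyed in resting cells, because KEAP1 presents it to a ubiquitin ligase. Oxidants and electrophiles disable KEAP1, and NRF2 then enters the nucleus, pairs with a small MAF protein and binds antioxidant response elements in its target genes, some of which BACH1 otherwise occupies as a repressor. In macrophages the pathway is known for heme breakdown, cystine uptake, glutathione synthesis and thioredoxin-based removal of peroxides. Since NRF2 is controlled largely through its protein, Nfe2l2 mRNA is not a measure of NRF2 activity, and no protein was measured in these libraries.

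The promoter sequences are shown because NRF2 and ATF4, another stress-responsive activator, meet these genes through short motifs. RefSeq promoter windows of GRCm38.p6 were at hand for 7 of the 10 genes, in 9 windows. No window was given for Hmox1, Gclc and Gsr. The 250 bases before each gene start were searched on both strands for 4 motifs. These were the antioxidant response element core TGACNNNGC, the element of NRF2-type factors with small MAF proteins TGANTCAGC, the AP-1 site TGANTCA and the ATF4 core TGATGNAA. Any TGANTCAGC contains TGANTCA, and TGACTCAGC satisfies 3 of the 4 motifs at once. In the windows below, which are the ones with a match other than AP-1 alone, capitals mark matches to TGACNNNGC, TGANTCAGC or TGATGNAA, and each run reads 5′ to 3′ along the gene's strand.
Nfe2l2, chr2:75704664-75704913, minus strand: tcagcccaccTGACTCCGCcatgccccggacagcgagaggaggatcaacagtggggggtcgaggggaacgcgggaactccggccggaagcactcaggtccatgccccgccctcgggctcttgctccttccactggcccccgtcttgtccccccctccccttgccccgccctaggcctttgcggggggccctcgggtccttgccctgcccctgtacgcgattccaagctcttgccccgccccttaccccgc
Gclm, chr3:122245307-122245556, plus strand: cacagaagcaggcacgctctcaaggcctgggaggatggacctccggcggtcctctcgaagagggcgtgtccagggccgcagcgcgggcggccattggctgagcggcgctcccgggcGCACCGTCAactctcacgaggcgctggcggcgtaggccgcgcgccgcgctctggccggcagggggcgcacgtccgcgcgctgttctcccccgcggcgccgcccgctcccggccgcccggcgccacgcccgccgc
Slc7a11, chr3:50443614-50443863, minus strand: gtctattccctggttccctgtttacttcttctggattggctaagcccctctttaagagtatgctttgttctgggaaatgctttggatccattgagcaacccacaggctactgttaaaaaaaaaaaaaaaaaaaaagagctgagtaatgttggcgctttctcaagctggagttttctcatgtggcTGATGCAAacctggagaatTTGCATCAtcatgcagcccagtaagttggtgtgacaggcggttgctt
Txnrd1, chr10:82858956-82859205, plus strand: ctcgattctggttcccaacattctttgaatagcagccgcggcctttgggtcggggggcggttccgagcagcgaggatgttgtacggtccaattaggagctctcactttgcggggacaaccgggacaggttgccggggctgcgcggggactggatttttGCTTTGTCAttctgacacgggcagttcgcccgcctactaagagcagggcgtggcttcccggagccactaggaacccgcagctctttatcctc
Prdx1, chr4:116685349-116685598, plus strand: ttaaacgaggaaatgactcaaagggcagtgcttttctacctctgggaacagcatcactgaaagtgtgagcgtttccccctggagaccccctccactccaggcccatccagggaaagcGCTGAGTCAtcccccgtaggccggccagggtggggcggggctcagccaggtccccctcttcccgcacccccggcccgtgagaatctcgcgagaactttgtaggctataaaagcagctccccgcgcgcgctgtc
Srxn1, chr2:152105274-152105523, plus strand: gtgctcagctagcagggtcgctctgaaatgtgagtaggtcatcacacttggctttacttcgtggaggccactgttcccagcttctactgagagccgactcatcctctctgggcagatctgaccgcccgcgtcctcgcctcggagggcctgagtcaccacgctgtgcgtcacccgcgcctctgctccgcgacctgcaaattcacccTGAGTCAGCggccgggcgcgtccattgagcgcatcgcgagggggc

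The core TGACNNNGC lay in 4 of the 9 windows, 1 each of Nfe2l2, Gclm, Txnrd1 and Prdx1, and in 10.2% of all 32851 promoter windows of this length. Txnrd1 had 3 windows, and its match was before a start that lies inside the gene. The element TGANTCAGC lay in 2 of the 9 windows, those of Prdx1 and Srxn1, and in 1.02% of all windows, and AP-1 sites lay in the same pair and in 6.75%. Slc7a11 held the ATF4 core 2 times, 66 to 59 and 47 to 40 bases before the start, in opposite orientations, and 3.45% of all windows held it. Nqo1 had no match to any of the 4 motifs in its window. A match describes letters only, and antioxidant response elements farther upstream were not searched.

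Stimulation with LPS+ATP raised the mRNA of all 9 targets in both genotypes, while Nfe2l2 mRNA itself fell, in Nlrp3-/- BMDMs by an amount whose sign turned under median-ratio scaling. In wild-type BMDMs 9 of the 10 genes rose and 1 fell at a Benjamini-Hochberg adjusted p under 0.05 by limma, against 23.3% of all tested genes that rose and 53.1% that fell. In Nlrp3-/- BMDMs again 9 rose and 1 fell, against 20.6% and 53.8% of all tested genes. Together the 10 genes made up 0.412 to 0.420% of the FPKM sum of a wild-type control library and 2.62 to 2.72% of a wild-type LPS+ATP library. The corresponding shares were 0.421 to 0.426% and 1.94 to 1.96% in Nlrp3-/- libraries. Hmox1 and Prdx1 supplied 79.5 to 80.9% of the summed level of the 10 genes in control libraries and 88.3 to 91.5% in LPS+ATP libraries.

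**Figure D1:**
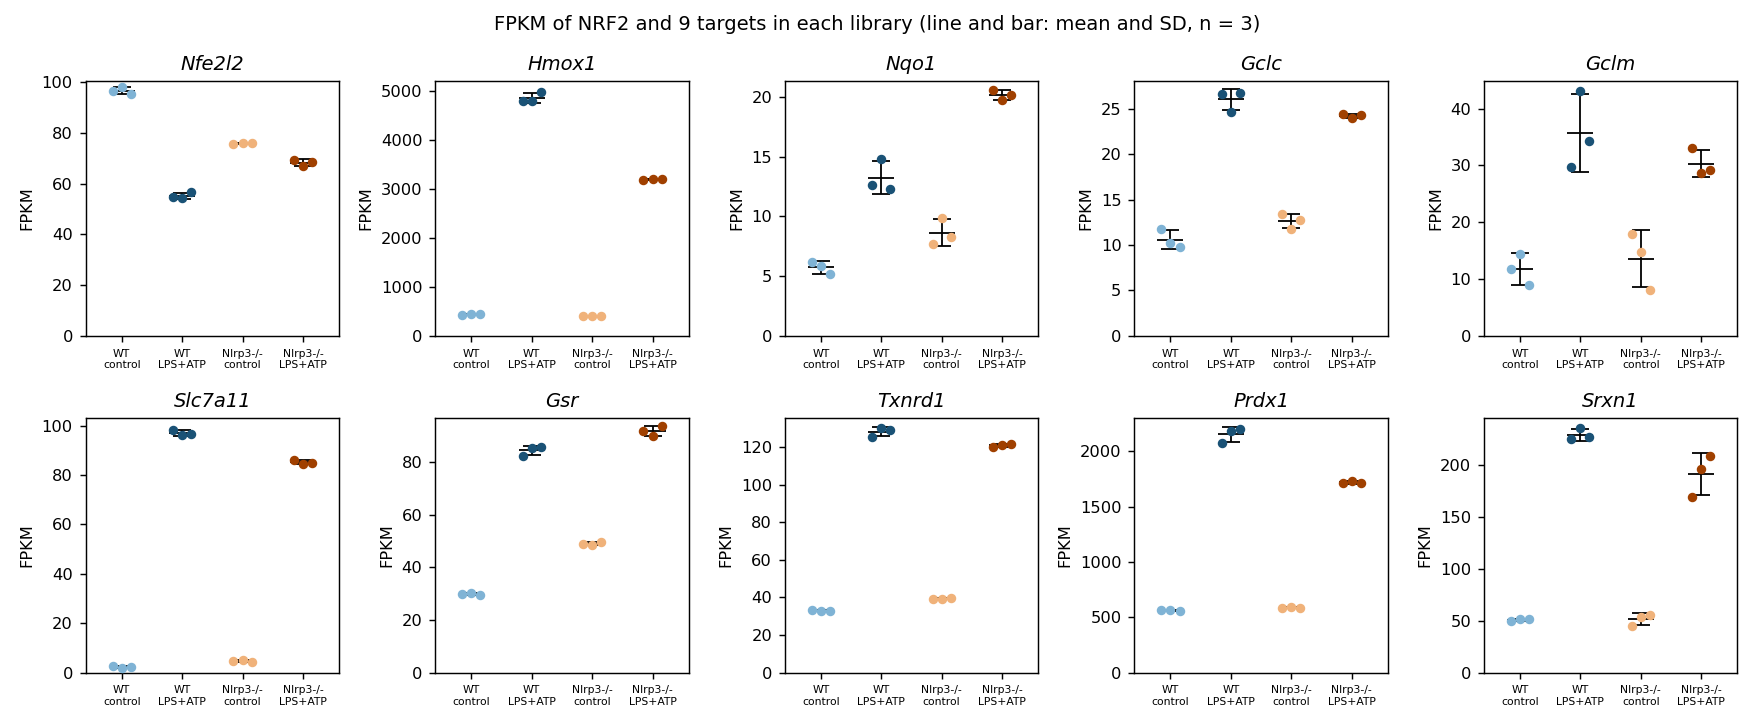
FPKM (y axis, linear and starting at 0) of NRF2 and its 9 targets in each of the 12 libraries, by group (x axis). Points are libraries and the line with bars is the mean and SD of 3 libraries. Both LPS+ATP groups lie above both control groups for all 9 targets, whereas Nfe2l2 is highest in wild-type control libraries, at 95.4 to 98.2 FPKM, and lowest in wild-type LPS+ATP libraries, at 54.3 to 56.6 FPKM.

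Nfe2l2 (ENSMUSG00000015839) lies on the minus strand of chromosome 2, chr2:75675513-75704641 of GRCm38. Its FPKM in wild-type control libraries was 96.4, 98.2 and 95.4, and with LPS+ATP it was 54.7, 54.3 and 56.6. In Nlrp3-/- BMDMs it was 75.6, 76.0 and 76.1 without stimulation and 69.4, 66.8 and 68.4 with LPS+ATP. No pair of groups overlapped, and Nlrp3-/- libraries lay between the wild-type groups in both states. The log2 fold change on the log2(FPKM + 1) scale with LPS+ATP was -0.80 (SE 0.0268, adjusted p = 1.894e-10 by limma) in wild-type and -0.15 (SE 0.0268, adjusted p = 0.000348 by limma) in Nlrp3-/- BMDMs. The interaction, which is the stimulation effect in Nlrp3-/- minus that in wild-type BMDMs, was 0.65 (SE 0.0379, adjusted p = 7.238e-07 by limma). The smaller fall depended on the scaling between libraries: after median-ratio scaling Nfe2l2 changed by 0.14 in Nlrp3-/- and by -0.47 in wild-type BMDMs, and the interaction was 0.61. The 0.14 passed as a rise (adjusted p = 0.000803 by limma). After upper-quartile scaling the change in Nlrp3-/- BMDMs did not pass (-0.03, adjusted p = 0.39 by limma).

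Hmox1 encodes heme oxygenase 1, which opens heme to biliverdin, iron and carbon monoxide. It lies at chr8:75093621-75100589. The FPKM was 423, 437 and 444 in wild-type control and 4793, 4790 and 4971 in wild-type LPS+ATP libraries, a mean ratio of 11.2. Hmox1 stood at ranks 59 to 62 of all genes in wild-type control libraries and at rank 4 with LPS+ATP. In Nlrp3-/- BMDMs it was 415, 412 and 415 without and 3184, 3204 and 3197 with stimulation, a ratio of 7.72 and rank 6. With LPS+ATP every Nlrp3-/- library was below every wild-type library, at 0.659 times the wild-type mean (log2 fold change -0.60, SE 0.0234, adjusted p = 4.352e-09 by limma). The rise itself was smaller in Nlrp3-/- BMDMs, with an interaction of -0.53 (SE 0.0331, adjusted p = 1.079e-06 by limma).

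Without stimulation the Hmox1 groups were much closer, with a log2 fold change of -0.07 between genotypes and an adjusted p of 0.0268 by limma. That call was lost when any control library other than wild-type replicate 1 was left out, with log2 fold changes of -0.07 to -0.06 and adjusted p of 0.0576 to 0.0944 by limma. It was also lost with no filter on low values, no variance trend or the compared groups alone, with adjusted p of 0.0997 to 0.176 by limma. The size depended on the scaling between libraries: after median-ratio scaling it was -0.23 (adjusted p = 1.044e-05 by limma).

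Slc7a11 encodes the light chain of the cystine/glutamate antiporter xCT, which brings in the cystine from which glutathione is made. It lies at chr3:49892526-50443614 on the minus strand. Its FPKM was 2.60, 2.03 and 2.41 in wild-type control libraries, the lowest level among the 10 genes, and 98.4, 96.1 and 96.4 with LPS+ATP. In Nlrp3-/- libraries it was 4.55, 4.99 and 4.21 without stimulation and 86.1, 84.5 and 85.0 with it. The ratio of the mean FPKM was 41.3 in wild-type and 18.6 in Nlrp3-/- BMDMs. Slc7a11 had the largest log2 rise of the 10 genes in both genotypes, at 4.87 (SE 0.0635, adjusted p = 7.15e-14 by limma) and 3.95 (SE 0.0635, adjusted p = 5.15e-13 by limma). In wild-type BMDMs it ranked 51 of 12622 genes by the size of the change.

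The genotype difference of Slc7a11 took opposite signs in the 2 states. Slc7a11 was 1.95 times as high in Nlrp3-/- as in wild-type BMDMs without stimulation (log2 fold change 0.74, limma adjusted p = 2.112e-06) and 0.879 times as high with LPS+ATP (-0.18 on the log2 scale, limma adjusted p = 0.0328). The LPS+ATP call was lost without any of the 6 libraries compared, at -0.19 to -0.17 with adjusted p of 0.063 to 0.0863 by limma. It was also lost with no filter on low values, a pseudocount of 0.1 or TPM, with adjusted p of 0.0676 to 0.106 by limma. After median-ratio scaling the difference with LPS+ATP was -0.37 (adjusted p = 0.000465 by limma). The interaction was -0.92 (SE 0.0898, adjusted p = 2.5e-05 by limma). With a pseudocount of 0.1 or with TPM the size of this interaction passed 1 on the log2 scale, which no other member's did.

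Gclc and Gclm encode the catalytic and the modifier subunit of glutamate-cysteine ligase, the first step of glutathione synthesis. Gclc (chr9:77754535-77794485) was 11.8, 10.2 and 9.77 FPKM in wild-type control, 26.6, 24.7 and 26.7 in wild-type LPS+ATP, 13.4, 11.8 and 12.8 in Nlrp3-/- control and 24.4, 23.9 and 24.3 in Nlrp3-/- LPS+ATP libraries. It rose 2.46-fold in wild-type and 1.92-fold in Nlrp3-/- BMDMs, with log2 fold changes of 1.22 (SE 0.0641, adjusted p = 9.721e-09 by limma) and 0.89 (SE 0.0641, adjusted p = 2.174e-07 by limma). The rise was smaller in Nlrp3-/- BMDMs (interaction -0.34, adjusted p = 0.0178 by limma). Gclc was higher in Nlrp3-/- control cells (0.24, adjusted p = 0.0101 by limma), whereas with LPS+ATP the log2 difference was -0.10 (95% interval -0.24 to 0.04, adjusted p = 0.232 by limma).

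Gclm (chr3:122245557-122270732) was the most variable of the 10 genes in 3 of the 4 groups, with a coefficient of variation of 7.92% to 36.6%. Its FPKM was 11.7, 14.5 and 8.91 in wild-type control, 29.6, 43.1 and 34.4 in wild-type LPS+ATP, 17.9, 14.8 and 8.15 in Nlrp3-/- control and 33.1, 28.7 and 29.2 in Nlrp3-/- LPS+ATP libraries. The stimulated and control groups did not overlap, while the genotypes overlapped in both states. Gclm rose by 1.54 (SE 0.247, adjusted p = 0.00015 by limma) in wild-type and by 1.16 (SE 0.247, adjusted p = 0.00128 by limma) in Nlrp3-/- BMDMs on the log2 scale. The interaction of -0.38 had a 95% interval of -1.15 to 0.39 (adjusted p = 0.474 by limma), so a difference between the rises as large as those of the other genes was not detectable here. Leaving out 1 library moved it from -0.68, without Nlrp3-/- control replicate 3, to -0.16, without Nlrp3-/- control replicate 1, and it passed in none of these fits. The gene is overlapped by the antisense transcript Gm17494, which was at most 0.00592 FPKM in wild-type control and 2.70 to 2.87 FPKM in wild-type LPS+ATP libraries. In Nlrp3-/- control libraries its lowest, median and highest FPKM were 0.00534, 3.13 and 3.32, and with LPS+ATP its median was 3.05. The strand setting of the counting is not given in the sources used here, so reads of the pair cannot be told apart.

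Gsr encodes glutathione reductase, which returns oxidised glutathione to its reduced form with NADPH. Gsr (chr8:33652523-33698163) was 30.0, 30.2 and 29.6 FPKM in wild-type control libraries and 82.3, 85.1 and 85.7 with LPS+ATP. The Nlrp3-/- libraries had 49.0, 48.4 and 49.5 FPKM without and 91.7, 89.8 and 93.6 with stimulation. Nlrp3-/- control cells thus already stood 1.64 times as high as wild-type control cells (log2 fold change 0.69, SE 0.0275, adjusted p = 3.829e-09 by limma). The rise was 1.46 (adjusted p = 1.411e-12 by limma) in wild-type and 0.89 (adjusted p = 1.208e-10 by limma) in Nlrp3-/- BMDMs, with an interaction of -0.57 (SE 0.0389, adjusted p = 1.946e-06 by limma). With LPS+ATP the genotypes differed by 0.12 (adjusted p = 0.00408 by limma), which turned to -0.07 after median-ratio scaling.

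Txnrd1, Prdx1 and Srxn1 belong to the thioredoxin branch. Txnrd1, the cytosolic thioredoxin reductase (chr10:82833951-82897712), was 33.3, 32.8 and 32.6 FPKM in wild-type control, 125, 130 and 129 in wild-type LPS+ATP, 39.2, 39.1 and 39.6 in Nlrp3-/- control and 120, 121 and 122 in Nlrp3-/- LPS+ATP libraries. It rose 3.90-fold in wild-type and 3.07-fold in Nlrp3-/- BMDMs, by 1.93 (SE 0.0245, adjusted p = 5.656e-14 by limma) and 1.60 (SE 0.0245, adjusted p = 3.569e-13 by limma) on the log2 scale. The genotype difference was 0.25 in control (adjusted p = 6.229e-06 by limma) and -0.08 with LPS+ATP (limma adjusted p = 0.0148). The latter became -0.07 without wild-type LPS+ATP replicate 2 (adjusted p = 0.0555 by limma). The interaction was -0.33 (SE 0.0346, adjusted p = 3.967e-05 by limma). Eid3, which lies inside Txnrd1 on the same strand, was at most 5.23 FPKM.

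Prdx1, a peroxiredoxin that reduces hydrogen peroxide, was already among the most abundant mRNAs of control cells. The gene lies at chr4:116685544-116700822, and its FPKM was 562, 564 and 554 in wild-type control and 2077, 2185 and 2200 in wild-type LPS+ATP libraries. In Nlrp3-/- libraries it was 580, 592 and 586 without and 1710, 1733 and 1713 with stimulation. The ratio was 3.85 in wild-type and 2.93 in Nlrp3-/- BMDMs, and the interaction was -0.39 (SE 0.0344, adjusted p = 1.212e-05 by limma). With LPS+ATP every Nlrp3-/- library was below every wild-type library (log2 fold change -0.32, SE 0.0243, adjusted p = 8.156e-07 by limma).

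Without stimulation Prdx1 differed between genotypes by 0.07 (adjusted p = 0.0463 by limma), which became -0.09 after median-ratio scaling. The call was lost without any of the 6 control libraries, at 0.06 to 0.07 with adjusted p of 0.0544 to 0.129 by limma. It was also lost with no filter on low values, no variance trend or the compared groups alone, with adjusted p of 0.098 to 0.202 by limma. The pseudogenes Gm21399 and Gm7204 share 98.3% and 97.5% of their bases with Prdx1 over 597 bases and reached 58.3 and 17.2 FPKM, so part of the reads could have been divided among them.

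Srxn1 encodes sulfiredoxin, which restores overoxidised peroxiredoxins. Srxn1 (chr2:152105516-152111376) was 49.9, 51.5 and 51.3 FPKM in wild-type control, 225, 236 and 227 in wild-type LPS+ATP, 45.4, 53.5 and 55.8 in Nlrp3-/- control and 169, 196 and 209 in Nlrp3-/- LPS+ATP libraries. The Nlrp3-/- groups spread more widely than the wild-type groups, with a coefficient of variation of 10.6% in each against 1.72% and 2.60%. Srxn1 rose 4.51-fold in wild-type and 3.71-fold in Nlrp3-/- BMDMs, by 2.15 (SE 0.0817, adjusted p = 5.711e-10 by limma) and 1.87 (SE 0.0817, adjusted p = 2.65e-09 by limma). The interaction of -0.28 did not pass (95% interval -0.53 to -0.02, adjusted p = 0.0993 by limma). It passed without Nlrp3-/- control replicate 1 (-0.37, adjusted p = 0.0207) or Nlrp3-/- LPS+ATP replicate 3 (-0.35, adjusted p = 0.049).

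With LPS+ATP, Srxn1 was lower in Nlrp3-/- BMDMs (-0.27, SE 0.0817, adjusted p = 0.0191 by limma). That call was lost without Nlrp3-/- LPS+ATP replicate 1 (-0.18, adjusted p = 0.073) or wild-type LPS+ATP replicate 2 (-0.25, adjusted p = 0.0601). In control cells the log2 difference was 0.01 (95% interval -0.17 to 0.19, adjusted p = 0.915 by limma), and it took either sign as single libraries were left out.

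Nqo1 encodes an NAD(P)H quinone reductase that turns quinones directly into hydroquinones. Nqo1 (chr8:107388225-107403206, minus strand) was 6.16, 5.88 and 5.15 FPKM in wild-type control, 12.6, 14.8 and 12.3 in wild-type LPS+ATP, 7.68, 9.87 and 8.27 in Nlrp3-/- control and 20.5, 19.7 and 20.2 in Nlrp3-/- LPS+ATP libraries. Every Nlrp3-/- library was above every wild-type library of the same state. The rise was 1.08 (SE 0.0908, adjusted p = 6.548e-07 by limma) in wild-type and 1.14 (SE 0.0908, adjusted p = 4.839e-07 by limma) in Nlrp3-/- BMDMs. Nqo1 was 1.50 times as high in Nlrp3-/- as in wild-type control cells (0.51, adjusted p = 0.000718 by limma) and 1.52 times as high with LPS+ATP (0.57, adjusted p = 0.000308 by limma). The interaction was 0.06 (95% interval -0.22 to 0.35, adjusted p = 0.76 by limma).

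**Figure D2:**
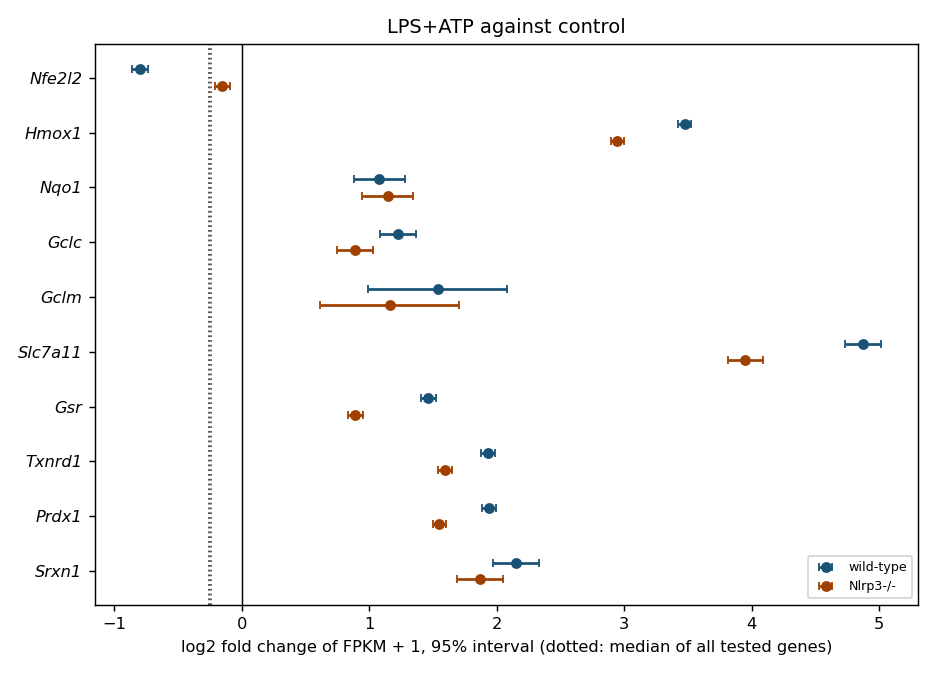
Log2 fold change of FPKM + 1 with LPS+ATP against control (x axis) for NRF2 and 9 targets (y axis) in wild-type and Nlrp3-/- BMDMs. Points are limma estimates, bars 95% intervals and dotted lines the medians of all tested genes, -0.25 and -0.24. The rises run from 1.08 for Nqo1 to 4.87 for Slc7a11 in wild-type BMDMs, and Nfe2l2 alone lies below 0.

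With a limit of 1 on the size of the log2 fold change added, 9 genes rose in wild-type BMDMs, against 8.25% of all tested genes. In Nlrp3-/- BMDMs 7 rose, against 6.64%, since Gclc and Gsr at 0.89 were below the limit. The median log2 fold change of the 10 genes was 1.73 in wild-type and 1.36 in Nlrp3-/- BMDMs, where the medians of all tested genes were -0.25 and -0.24. The stimulation effect itself differed between genotypes for 7 of the 10 genes. The interaction was negative for 6 (Hmox1, Gclc, Slc7a11, Txnrd1, Prdx1 and Gsr), against 13% of all tested genes, and positive for Nfe2l2, against 14.7%. No member's interaction reached the limit of 1, and 2.15% of all tested genes did. The median interaction was -0.36 over the 10 genes and 0.02 over all tested genes.

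Without stimulation 6 of the 10 genes were higher in Nlrp3-/- BMDMs (Nqo1, Gclc, Slc7a11, Txnrd1, Gsr and, with a sign that median-ratio and upper-quartile scaling turned, Prdx1), against 33.3% of all tested genes. Nfe2l2 and Hmox1 were lower, against 14.5%, and Gclm and Srxn1 did not pass. In control cells the calls of Hmox1, Prdx1 and Gclc were lost under some alternatives. With LPS+ATP 3 genes were higher (Nfe2l2, Nqo1 and, with a sign that both scalings turned, Gsr), against 35.9%, and 5 were lower (Hmox1, Slc7a11, Txnrd1, Srxn1 and Prdx1), against 12.6%. The calls of Slc7a11, Txnrd1 and Srxn1 among these were lost under some alternatives. No member had a limma log2 fold change of 1 or more between genotypes in either state, where 6.71% and 5.05% of all tested genes did. The comparisons share libraries, so their counts are not independent.

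Scaling between libraries moved some of these small differences. Median-ratio scaling moved the median of all tested genes by -0.12 without stimulation and by -0.15 with LPS+ATP. After it, 4 members were higher and 3 lower in Nlrp3-/- control cells, against 20.5% and 25.6% of all tested genes, and 2 were higher and 6 lower with LPS+ATP, against 22.7% and 27.2%. Gclc with LPS+ATP then passed (-0.28, adjusted p = 0.00263 by limma) and in control it no longer did (0.09, adjusted p = 0.242 by limma). The interaction was positive for 1 member and negative for 6, as without this scaling, against 13.1% and 14.3% of all tested genes.

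**Figure D3:**
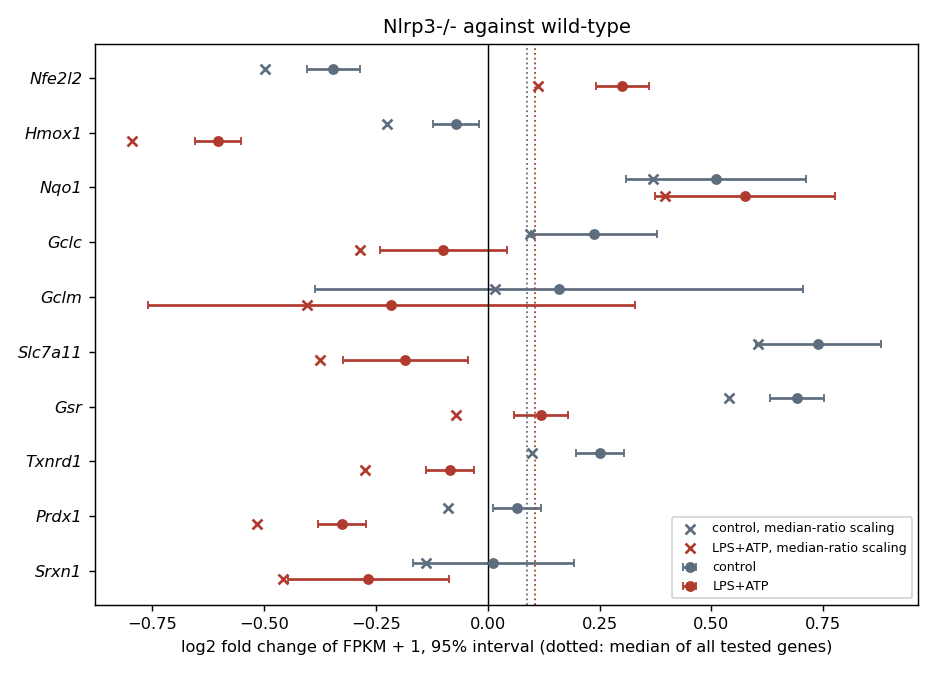
Log2 fold change of FPKM + 1 in Nlrp3-/- against wild-type BMDMs (x axis) for NRF2 and 9 targets (y axis), without stimulation and with LPS+ATP. Points are limma estimates, bars 95% intervals, crosses the estimates after median-ratio scaling and dotted lines the medians of all tested genes, 0.09 and 0.11. Slc7a11 has the largest positive value without stimulation, 0.74, and Hmox1 the largest negative value with LPS+ATP, -0.60.

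The wild-type and Nlrp3-/- libraries differed in other measures as well. Nlrp3 was listed at 0 in all 6 Nlrp3-/- libraries and at 9.24 to 10.1 FPKM in unstimulated wild-type cells. None of the 7 macrophage markers was under 1 FPKM in any group, but 4 of them were lower and 0 higher in Nlrp3-/- cells in each state, with median log2 differences of -0.36 in control and -0.17 with LPS+ATP. The control libraries held Cd68 at 1424, 1478 and 1449 FPKM in wild-type cells against 889, 869 and 872 FPKM in Nlrp3-/- cells, and Csf1r at means of 253 ± 5.16 against 164 ± 3.33 FPKM (SD, n = 3). All 7 fibroblast markers were higher in Nlrp3-/- cells in both states, with a summed FPKM of 157 to 162 in wild-type and 1166 to 1183 in Nlrp3-/- control libraries, and of 181 to 184 and 893 to 908 with LPS+ATP. Granulocyte markers summed to 334 to 371 and 1817 to 1868 FPKM in the control libraries and to 329 to 343 and 706 to 715 FPKM with LPS+ATP, and 9 and 7 of their 9 tested members were higher in Nlrp3-/- cells. Beside these marker counts, 33.3% of all tested genes were higher and 14.5% lower in Nlrp3-/- control cells, and 35.9% and 12.6% with LPS+ATP. Erythroid markers summed to at most 1.92 FPKM in wild-type libraries and to 11.9 to 14.3 FPKM in Nlrp3-/- control libraries. The part of other cells in the genotype differences was not tested. In bulk samples, fewer cells of a type and less RNA per cell cannot be told apart. Xist was 32.8 to 56.3 FPKM in Nlrp3-/- libraries and at most 0.0416 in wild-type libraries, and Ddx3y was listed at 0 in all Nlrp3-/- libraries, so sex of the donor mice and genotype cannot be told apart.

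The regulators of NRF2 moved in unlike directions with stimulation. Keap1, which targets NRF2 for destruction, was 10.8, 11.8 and 11.9 FPKM in wild-type control libraries and 19.0 to 20.7 FPKM with LPS+ATP. It rose by 0.74 in wild-type (adjusted p = 7.97e-07 by limma) and by 1.00 in Nlrp3-/- BMDMs (adjusted p = 7.409e-08 by limma). Set against Nfe2l2 per length, Keap1 mRNA went from 0.119 ± 0.00657 to 0.361 ± 0.0227 (ratio, SD, n = 3) in wild-type and from 0.121 ± 0.00857 to 0.283 ± 0.0155 in Nlrp3-/- BMDMs.

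Bach1, the repressor that competes for antioxidant response elements, was 23.5, 22.6 and 22.3 FPKM in wild-type control and 9.16, 8.46 and 9.29 in wild-type LPS+ATP libraries. It fell by 1.25 in wild-type (adjusted p = 2.648e-10 by limma) and by 1.09 in Nlrp3-/- BMDMs (adjusted p = 1.302e-09 by limma). The small MAF genes, whose products pair with NRF2 and with BACH1, all rose. Maff rose by 2.35 and 1.39, Mafg by 0.81 and 0.89 and Mafk by 0.75 and 0.92 in wild-type and Nlrp3-/- BMDMs. Sqstm1, which encodes the KEAP1-binding autophagy receptor p62, rose by 2.22 and 1.83, from 200 ± 4.27 to 936 ± 16.0 FPKM (SD, n = 3) in wild-type BMDMs.

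**Figure D4:**
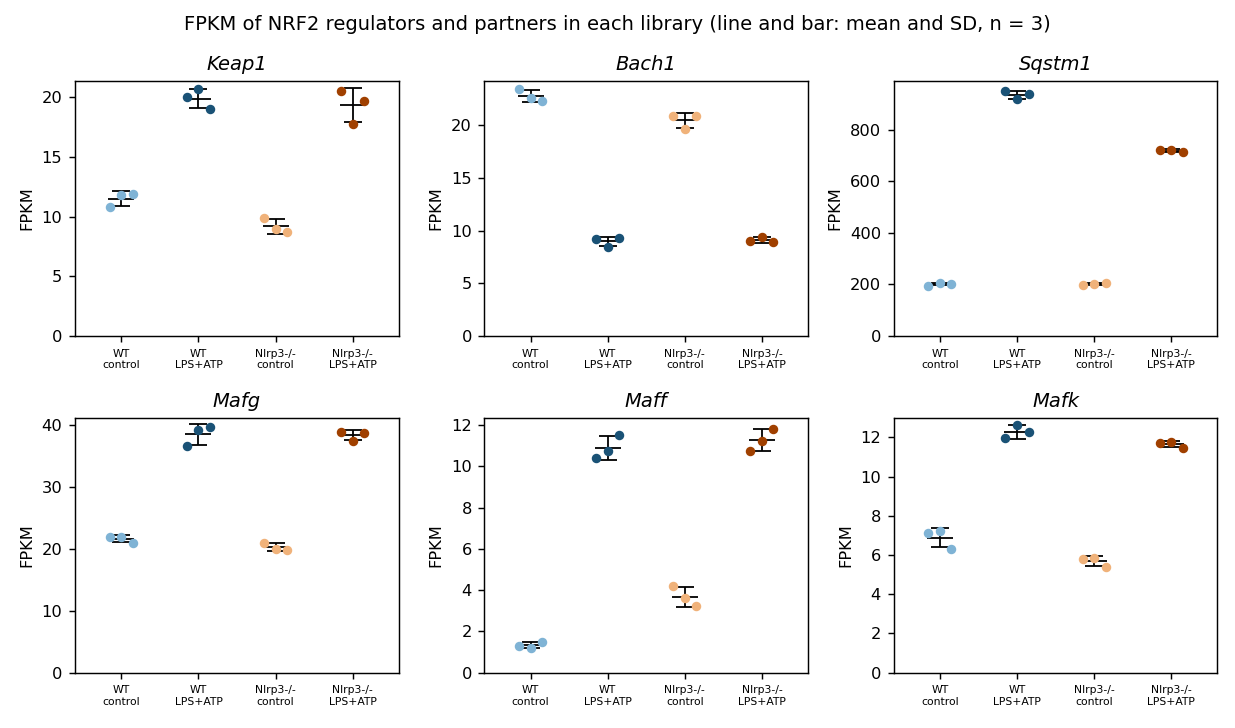
FPKM (y axis, linear and starting at 0) of 6 regulators and partners of NRF2 in each of the 12 libraries, by group (x axis), with mean and SD of 3 libraries. LPS+ATP libraries lie above control libraries of the same genotype for Keap1, Sqstm1, Mafg, Maff and Mafk and below them for Bach1. Maff stands at 3.23 to 4.19 FPKM in Nlrp3-/- control and 1.22 to 1.50 FPKM in wild-type control libraries.

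Between genotypes, the largest difference among these 6 genes was that of Maff in control cells, 1.00 higher in Nlrp3-/- BMDMs (adjusted p = 8.766e-07 by limma), with 0.05 under LPS+ATP (adjusted p = 0.666 by limma) and an interaction of -0.96 (adjusted p = 8.388e-05 by limma). Sqstm1 was 0.38 lower in Nlrp3-/- BMDMs with LPS+ATP (limma adjusted p = 2.365e-07) and had an interaction of -0.39 (adjusted p = 1.212e-05 by limma). Of the whole list of 14 tested regulators and partners, 6 rose and 3 fell in wild-type BMDMs, against 23.3% and 53.1% of all tested genes. In Nlrp3-/- BMDMs 6 rose and 5 fell, against 20.6% and 53.8%, and the median was 0.20 in both genotypes.

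Other genes of the same metabolic systems were split between rises and falls. In the glutathione system 9 of 19 tested genes rose and 7 fell in wild-type BMDMs, against 23.3% and 53.1% of all tested genes. Their median was -0.03, against -0.25 over all tested genes. Slc3a2, the heavy chain that xCT needs, rose by 1.66 and 1.30, Gss, the second step of glutathione synthesis, by 1.19 and 1.00, and the glutaredoxin Glrx by 2.13 and 1.93 in wild-type and Nlrp3-/- BMDMs. The phospholipid hydroperoxidase Gpx4 fell by 0.89 and 0.70, and Mgst3, a microsomal glutathione transferase, fell by 2.96 and 2.21. Gpx1 fell by 2.46 and 1.89. The ratio of Slc7a11 to Slc3a2 per length went from 0.0424 ± 0.00692 to 0.546 ± 0.00709 (SD, n = 3) in wild-type and from 0.0700 ± 0.00521 to 0.526 ± 0.0230 in Nlrp3-/- BMDMs.

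Among the 13 genes of thioredoxin and peroxide removal outside the 10, 3 rose and 7 fell in wild-type BMDMs, and the median was -0.31. These counts were near the 23.3% and 53.1% of all tested genes. The 3 were Txn1, the thioredoxin that Txnrd1 reduces (1.20 in wild-type and 0.68 in Nlrp3-/- BMDMs), and the peroxiredoxins Prdx5 (2.79 and 2.23) and Prdx6 (1.98 and 1.57). Txnip, an inhibitor of thioredoxin, fell by 1.87 and 1.68. Txn1, Prdx5 and Prdx6 were 0.54, 0.49 and 0.30 higher in Nlrp3-/- control cells, and their interactions were -0.52, -0.56 and -0.41, each past the adjusted p of 0.05 by limma.

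The genes of heme and iron handling included 2 of 9 that rose and 5 that fell in wild-type BMDMs, again near the 23.3% and 53.1% of all tested genes. Blvra, the reductase of the biliverdin that heme oxygenase makes, fell by 1.53 and 1.45, while Blvrb, a flavin reductase that acts on other biliverdin isomers, rose by 1.16 and 0.67 in wild-type and Nlrp3-/- BMDMs. Slc40a1 fell by 1.39 and 1.73. Hmox1 stood at 10.2 ± 0.777 times Hmox2, the constitutive heme oxygenase, in wild-type control libraries and at 164 ± 36.6 times with LPS+ATP (SD, n = 3). The ferritin genes, which store the iron that heme oxygenase releases, had small differences. Fth1 had a log2 difference of 0.29 (95% interval 0.01 to 0.57, adjusted p = 0.0573 by limma) in wild-type BMDMs, and Ftl1 had -0.11 (adjusted p = 0.029 by limma), which turned to 0.22 after median-ratio scaling. In Nlrp3-/- BMDMs Ftl1 had -0.35 (adjusted p = 1.689e-05 by limma), with an interaction of -0.24 (adjusted p = 0.0128 by limma). Between genotypes Ftl1 differed by -0.12 in control and -0.36 with LPS+ATP (adjusted p = 0.0356 and 3.275e-05 by limma). Fth1 did not pass in any of these comparisons.

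Genes that supply NADPH, which Gsr, Txnrd1 and Nqo1 consume, were also split, with 4 of 9 that rose and 4 that fell in wild-type BMDMs, against 23.3% and 53.1% of all tested genes. G6pdx, the entry to the pentose phosphate pathway, rose by 0.45 and 0.16, and Me1, malic enzyme, by 1.36 and 0.48 in wild-type and Nlrp3-/- BMDMs. Idh1 fell by 1.64 and 1.16. Me1 was 1.71 higher in Nlrp3-/- control cells, and Nnt, the mitochondrial transhydrogenase that some C57BL/6 substrains lack, was 2.27 lower. With LPS+ATP the log2 difference of Nnt between genotypes was -1.47 (adjusted p = 2.778e-06 by limma). Its mean FPKM was 9.38 in wild-type and 1.16 in Nlrp3-/- control libraries, so it was low there and not absent. Whether the mice of the 2 genotypes shared a substrain was not tested. In the list of quinone and carbonyl detoxification 4 of 13 genes rose and 7 fell in wild-type BMDMs, against the same 23.3% and 53.1%. Nqo2, the paralogue of Nqo1, fell by 1.49 and 0.82, so that the ratio of Nqo1 to Nqo2 per length went from 0.424 ± 0.0478 to 3.19 ± 0.443 (SD, n = 3) in wild-type BMDMs. Ephx1 fell by 1.08 and 0.83 in wild-type and Nlrp3-/- BMDMs, and Ptgr1 rose by 1.31 and 0.94.

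Slc7a11 is also a target of ATF4, the activator of amino acid synthesis genes. Of 9 tested genes in a list of Atf4 and its targets, 8 rose and 0 fell in each genotype at an adjusted p under 0.05 by limma, and Psat1 did not pass (0.21 in wild-type and 0.34 in Nlrp3-/- BMDMs). Of all tested genes 23.3% rose and 53.1% fell in wild-type BMDMs, and 20.6% rose and 53.8% fell in Nlrp3-/- BMDMs. At an unadjusted p under 0.05 the number that fell was also 0 in both. Their median was 1.35 in wild-type and 0.58 in Nlrp3-/- BMDMs. In control cells 8 of 9 were higher in Nlrp3-/- BMDMs, all but Atf4 itself (0.45, adjusted p = 0.0782 by limma), against 33.3% of all tested genes, with a median of 1.56 against 0.20 for the 10 members and 0.09 for all tested genes. The largest differences were those of Phgdh (2.28), Slc7a5 (1.99) and Trib3 (1.87). With LPS+ATP 6 of the 9 were higher and 1 was lower in Nlrp3-/- BMDMs, against 35.9% and 12.6% of all tested genes. Their median there was 0.70, whereas Slc7a11 was lower in that state (-0.18), a call lost under some alternatives. Of the interactions 7 were negative, against 13% of all tested genes, with a median of -0.75.

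**Figure D5:**
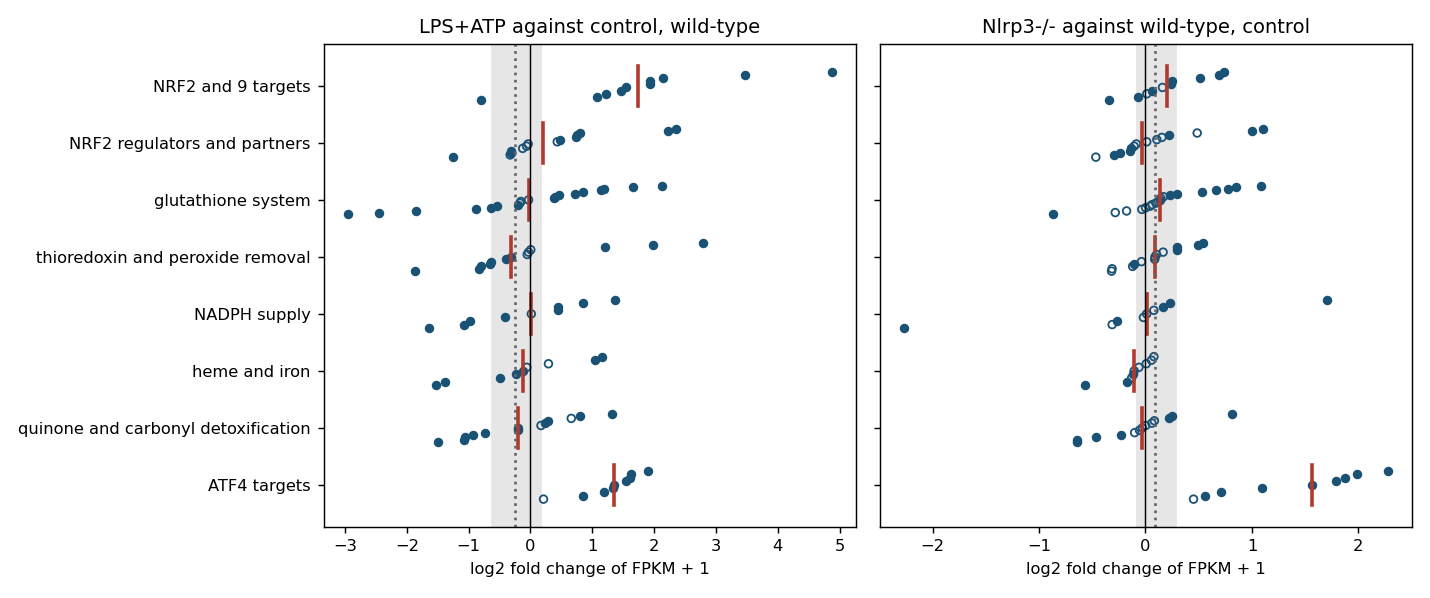
Log2 fold change of FPKM + 1 (x axis) of each tested gene of 8 lists (y axis), with LPS+ATP in wild-type BMDMs (left) and in Nlrp3-/- against wild-type control BMDMs (right). Filled points have an adjusted p under 0.05 by limma, open points do not, red lines are list medians, the grey band spans the quartiles of all tested genes and the dotted line is their median. With LPS+ATP the medians of NRF2 with its 9 targets and of the ATF4 targets are 1.73 and 1.35, those of the other 6 lists lie between -0.31 and 0.20.

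The genes whose pattern over the 12 libraries was nearest to that of each member were found by the root mean square difference of log2(FPKM + 1), each gene centred on its own mean. Nfe2l2 was nearest to Tbc1d1 (0.0627) and Rap2b (0.0699), and Hmox1 to Pdpn (0.0716) and Gm44418 (0.108). Prdx1 was nearest to Rhbdf2 (0.0600) and Nfkbib (0.0687), and Gsr to Vasp (0.0713) and Sgk1 (0.0779). Slc7a11, the member with the widest range, was nearest to AA467197 (0.132) and Hcar2 (0.173). Txnrd1 was nearest to Orai2 (0.0656) and Prdx6 (0.0737), and Srxn1 to Sqstm1 (0.0972) and Tnfrsf1b (0.101). Nqo1 was nearest to Gnb4 (0.136) and Car2 (0.144), Gclc to Fnbp1l (0.0738) and AI314180 (0.0738), and Gclm to Ifit1bl2 (0.207) and Dtx2 (0.239). These are likenesses of level across 4 groups and say nothing of shared control.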

How the data were processed

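RNA of 12 BMDM libraries was prepared with an Illumina TruSeq kit and sequenced by the authors, who deposited 1 table of FPKM per gene and library. Their processing notes, per the labels, name the build GRCm39 and DESeq2 1.24.0. The aligner, annotation, strand setting and read depth are not given in the sources used here. FPKM carry no counts. The spacing of low values gave relative depths of 1.00 to 1.22, and FPKM summed to 283278 to 299393 per library, with r of 0.990 to 0.993 between libraries of a group. No column of values was left unused.

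Genes that reached an FPKM of 1 in 3 or more of 12 libraries entered limma 3.58.1 under R 4.3.3, as log2(FPKM + 1), with 1 mean per group and a variance trend, for stimulation in each genotype, genotype in each state and their interaction. Fold changes on this scale understate those of low genes. Two-sided p-values were adjusted by Benjamini-Hochberg over all 12622 tested genes. The members and all gene lists were chosen with earlier results of these data known.

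All members were named, together with 18 preset pathway genes, the 2 nearest patterns per member, and marker genes. Of the up to 3 genes per list and comparison with the largest change past the adjusted p, only some were named. Alternatives were a pseudocount of 0.1, no filter or one of FPKM 5, no fold limit, TPM, upper-quartile and median-ratio scaling, no trend, the compared groups alone, a replicate block and leaving out each library. Positions came from GENCODE M21 (GRCm38), and 55154 of 55335 identifiers matched. Promoter windows came from RefSeq (GRCm38.p6). Near copies were sought with blastn 2.17.0 at 95% identity over 20% of a member's longest transcript. Figures were drawn with matplotlib 3.10.9 in Python 3.11.15.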

Additional observations from a re-analysis of the deposited data

Results flagged for a closer look

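For 7 of the 10 genes the effect of LPS+ATP differed between wild-type and Nlrp3-/- BMDMs by limma's test of the difference. Of all tested genes, 14.7% had a positive and 13% a negative interaction past the adjusted p of 0.05. The interaction was 0.65 for Nfe2l2, -0.53 for Hmox1, -0.34 for Gclc, -0.92 for Slc7a11, -0.33 for Txnrd1, -0.39 for Prdx1 and -0.57 for Gsr, on the log2(FPKM + 1) scale. All 7 had an adjusted p under 0.05 under each alternative tried, leaving out each library included. Groups of 3 libraries are too small for a test of single outlying libraries.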

How the results depend on the processing

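The rises of the 9 targets with LPS+ATP kept their direction and their side of the adjusted p of 0.05 in both genotypes under every alternative. With the fold limit of 1, the counts of members called were 9 in wild-type and 6 to 9 in Nlrp3-/- BMDMs. With the limit no member differed between genotypes or in the interaction, except that TPM and a pseudocount of 0.1 each gave 1 in the interaction. Without the limit 8 members differed in control, 8 with LPS+ATP and 7 in the interaction. Of all tested genes, 33.3% were higher and 14.5% lower in Nlrp3-/- BMDMs in control, and 35.9% and 12.6% with LPS+ATP. The interaction was positive for 14.7% of them and negative for 13%. Median-ratio scaling moved the median of all genes by 0.25 and 0.23 for stimulation in wild-type and Nlrp3-/- BMDMs, by -0.12 and -0.15 for genotype in control and with LPS+ATP, and by -0.02 for the interaction. It turned the sign for Nfe2l2 with stimulation in Nlrp3-/- BMDMs (0.14), Gsr (-0.0709) and Rbx1 (-0.0167) between genotypes with LPS+ATP, Prdx1 (-0.089) and Srxn1 (-0.14) between genotypes in control, and Ftl1 with stimulation in wild-type BMDMs (0.22). Upper-quartile scaling turned Gsr (-0.000778), Prdx1 (-0.0075), Srxn1 (-0.0586) and Ftl1 (0.0599) in the same comparisons. Leaving out 1 library gave -0.0586 to 0.46 for Gclm and -0.0462 to 0.10 for Srxn1 between genotypes in control, and -0.00576 to 0.16 for the interaction of Nqo1. Of the other values of members that crossed the threshold, 20 lost it and 2 passed it when 1 library was left out, and 13 lost it and 3 passed it under the other settings. The deviations of libraries that share a replicate number correlated at -0.0565 to 0.0528, so the numbers were not taken to pair libraries. With a replicate block the interaction of Srxn1 passed (-0.28, adjusted p = 0.0367 by limma), and the block changed no other call of a member. FPKM give no read numbers, so the counting error of low values such as Slc7a11 in control cells is unknown.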
